A study of Mus musculus with 6 samples.

Results

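The amino acid transporter families Slc1, Slc3, Slc6, Slc7, Slc36, Slc38 and Slc43 were followed in mouse kidneys on day 28 after ischaemia and reperfusion, an injury made by stopping and restoring the blood supply. Members were the protein-coding genes of the count table whose symbol begins with one of these family names, without Slc7a11. The rule found 61 genes among the 35275 of the table. One of them, Slc7a6os, matched by its name and is no carrier, which left 60 carriers. Poly-A RNA had been sequenced from whole kidneys of wild-type (WT) C57Bl/6 mice with 2 lengths of ischaemia. Ischaemia of 20 min gave the mild group (libraries 7, 8 and 9) and ischaemia of 35 min the severe group (libraries 13, 14 and 15), with 3 kidneys each. The labels give neither age nor sex of the mice. They do not tie each kidney to a mouse of its own, and p-values speak to the spread among these 6 samples, which may be technical. Uninjured kidneys were not analysed here, and every difference is one of longer against shorter ischaemia.

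Amino acids filtered at the glomerulus are reclaimed almost wholly by the proximal tubule. Carriers of its apical (brush border) membrane take them up from the filtrate and carriers of its basolateral membrane pass them on to the blood. Several of these are pairs, in which a heavy chain (Slc3a1 at the apical, Slc3a2 at the basolateral membrane) brings a light chain of the Slc7 family to the cell surface. Another set of carriers brings amino acids into growing, dividing or activated cells of many tissues. These growth-linked carriers feed the nutrient sensor mTORC1, and several of them are induced through the transcription factor Atf4 when amino acids run short.

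Proximal tubule carriers stood lower and most growth-linked carriers higher after the longer ischaemia, but no single member passed the test. Of the 61 members, 43 had enough counts to be tested. In edgeR's quasi-likelihood test, with p-values adjusted by Benjamini-Hochberg over the 14883 genes tested, 0 of the 43 had an adjusted p under 0.05, where 0.0134% of all tested genes did. At an unadjusted p under 0.05, 10 members were higher and 6 lower in severe kidneys, against 15.8% and 7.89% of all tested genes. DESeq2 called 3 members higher and 1 lower, where it called 6.91% and 0.954% of all tested genes. The count depended on single libraries: 17 of 45 members passed in edgeR without severe library 13 (12 higher, 5 lower; 13.8% and 7.74% of all tested genes), and 4 of 43 without severe library 14 (2 higher, 2 lower; 2.4% and 0.931%). Slc36a2, which reached the filter there through its severe libraries alone, is among the 12. Without library 13 the higher ones were Slc1a5, Slc36a2, Slc36a4, Slc38a1, Slc38a2, Slc43a1, Slc43a3, Slc7a1, Slc7a12, Slc7a2, Slc7a5 and Slc7a6, and the lower ones Slc1a1, Slc36a1, Slc38a3, Slc6a13 and Slc6a20b. With limma-voom and quality weights, which give libraries that stand apart less weight, 11 members passed as higher and 14 as lower, beside 18.2% and 15.7% of all tested genes. Without a filter on low counts 1 passed, Slc43a3, beside 0.591% of genes called higher and 0.0529% called lower. The median log2 fold change (severe over mild, also called the log2 difference) was -0.34 over 13 proximal tubule carriers and 0.61 over 8 growth-linked carriers, beside 0.000194 over all tested genes. Without severe library 14 these medians were -0.17 and 0.32.

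The libraries held 15240491 to 17730967 counts, and levels are given as CPM, the counts of a gene scaled to the TMM-adjusted size of its library (the usual CPM scale). Severe kidneys differed more among themselves than mild ones did. Library 14 was the severe library farthest from the mild mean for 34 of the 43 tested members (79.1%) and for 68.9% of all tested genes. Marker genes of the proximal tubule were abundant in every library, with summed levels of 40025 to 41453 CPM in mild and 17391 to 35208 CPM in severe kidneys over 15 genes, none of them at 0. Macrophage markers summed to 350.1 to 422 CPM in mild and 663 to 1304 CPM in severe kidneys over 12 genes, fibroblast markers to 641 to 790.3 CPM in mild and 1302 to 4194 CPM in severe kidneys over 10, and injured tubule markers to 2447 to 3158 CPM in mild and 3251 to 10808 CPM in severe kidneys over 10. Each of these sums was most extreme in library 14, and the part of these shifts in the results on the carriers was not tested. In whole-kidney RNA, fewer cells of a type and less RNA per cell cannot be told apart. The male-specific genes Ddx3y, Uty, Kdm5d and Eif2s3y were present in all 6 libraries, with summed levels of 158 to 171 CPM together with Xist.

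The level of the members spanned several orders of magnitude. Compared per kilobase of gene length, Slc7a13 had the highest level, with 403 ± 10.8 CPM per kb in mild kidneys (mean ± SD, n = 3). It made up 22.9% of the summed level of all members there. Slc3a1 followed with 173 ± 3.56 CPM per kb and Slc6a18 with 158 ± 5.38. The next were Slc3a2 (101 ± 9.51), Slc7a7 (97.8 ± 4.66) and Slc6a19 (92.6 ± 8.78 CPM per kb), which did not differ beyond their spread. Growth-linked carriers other than Slc3a2 stood far lower, from 19.2 ± 1.23 CPM per kb for Slc1a5 to 0.237 ± 0.0331 for Slc43a1 among those tested. Apical proximal carriers made up 55.9% to 57.6% of the summed level per kb of all members in mild kidneys, and 56.2%, 42.8% and 53.6% in severe libraries 13, 14 and 15.

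**Figure D1:**
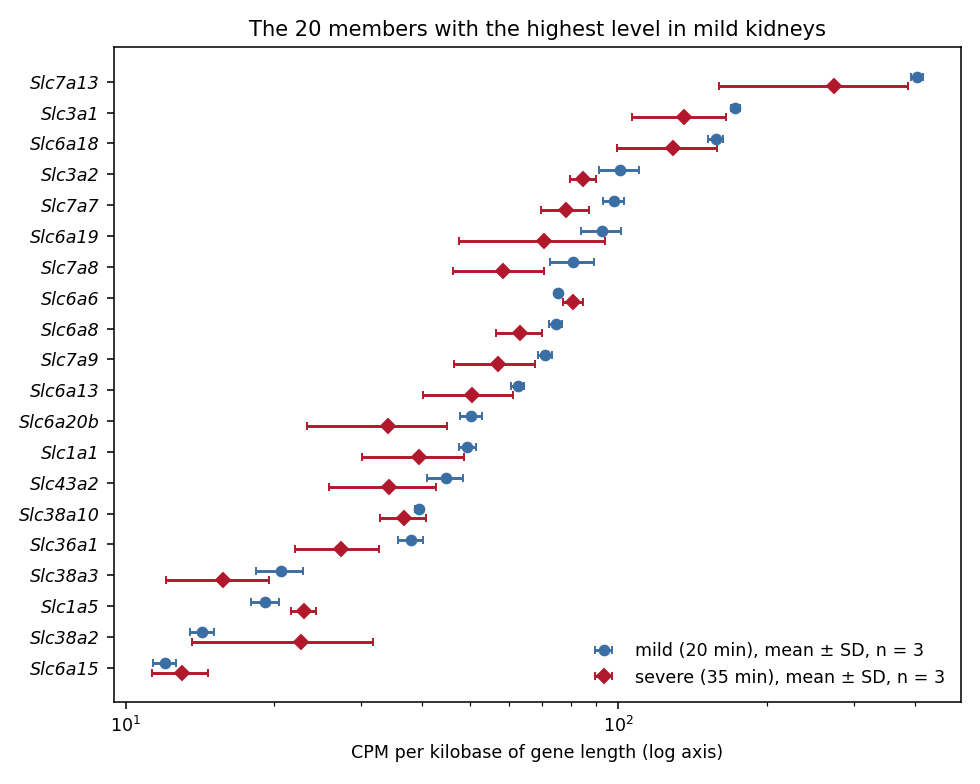
Level of the 20 members with the highest mean in mild kidneys, as CPM per kilobase of gene length on a log axis. Circles (mild) and diamonds (severe) are means of 3 kidneys with SD bars, and the severe bars are the wider ones for most proximal carriers, as for Slc7a13 with 403 ± 10.8 in mild and 274 ± 114 in severe kidneys.

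Promoter sequences were read for the members from RefSeq (build GRCm38.p6, 250 bases before to 50 after the start site), and 43 of 61 members had at least 1 window. Motifs of factors known for each group of carriers were searched on both strands: GTTAAT, the half-site of HNF1, which also lies inside its full palindromic site; CAAAGTCCA, a site of HNF4; and TGATGNAA, the amino acid response element that Atf4 binds. HNF1 and HNF4 are transcription factors of proximal tubule identity. The HNF1 half-site was in windows of 4 of 10 proximal carriers (4 of 18 windows), and 7.1% of all 32851 promoter windows hold it. Those carriers were Slc3a1, Slc6a20a, Slc6a13 and Slc7a7, and windows of 6 members in all held it. The HNF4 site was in the window of Slc3a1 alone among the members, and in 0.475% of all windows. The full HNF1 site was in 0 of the 64 member windows, and in 0.00913% of all windows. The amino acid response element was in the window of 1 of 7 growth-linked carriers, Slc1a4, in 2 windows of Slc7a7, and in 3.97% of all windows. Those 2 windows of Slc7a7 overlap, and 1 match lies in both of them. A match is a match of letters and shows no binding.

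Windows of 4 carriers are shown with the matches in capitals. Slc3a1 held both proximal motifs and Slc6a20b, the proximal carrier with the lowest fold change, held neither. The window of Slc1a4 held the amino acid response element and that of Slc38a2 did not. Sequence outside the windows was not searched, so an element elsewhere in a gene would be missed. The windows, each 5′ to 3′ on the strand of its gene, lie at chr17:85028097-85028396 (plus strand), chr9:123632489-123632788, chr11:20332664-20332963 and chr15:96699679-96699978 (minus strand).
Slc3a1: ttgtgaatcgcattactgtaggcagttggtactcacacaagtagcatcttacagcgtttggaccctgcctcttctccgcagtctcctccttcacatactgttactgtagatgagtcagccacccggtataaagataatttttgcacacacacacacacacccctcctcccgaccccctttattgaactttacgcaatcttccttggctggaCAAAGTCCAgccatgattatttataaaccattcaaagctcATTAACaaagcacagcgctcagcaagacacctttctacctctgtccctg
Slc6a20b: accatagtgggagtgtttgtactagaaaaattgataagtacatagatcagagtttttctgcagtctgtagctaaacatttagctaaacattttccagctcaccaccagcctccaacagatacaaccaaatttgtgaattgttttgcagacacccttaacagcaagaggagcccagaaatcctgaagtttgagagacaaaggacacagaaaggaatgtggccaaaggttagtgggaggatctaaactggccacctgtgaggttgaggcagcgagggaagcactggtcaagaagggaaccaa
Slc1a4: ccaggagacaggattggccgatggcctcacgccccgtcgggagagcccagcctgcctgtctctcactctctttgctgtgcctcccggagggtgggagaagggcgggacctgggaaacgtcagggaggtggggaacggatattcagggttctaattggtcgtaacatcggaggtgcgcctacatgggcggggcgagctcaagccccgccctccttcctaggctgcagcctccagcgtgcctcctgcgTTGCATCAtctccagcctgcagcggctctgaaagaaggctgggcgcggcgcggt
Slc38a2: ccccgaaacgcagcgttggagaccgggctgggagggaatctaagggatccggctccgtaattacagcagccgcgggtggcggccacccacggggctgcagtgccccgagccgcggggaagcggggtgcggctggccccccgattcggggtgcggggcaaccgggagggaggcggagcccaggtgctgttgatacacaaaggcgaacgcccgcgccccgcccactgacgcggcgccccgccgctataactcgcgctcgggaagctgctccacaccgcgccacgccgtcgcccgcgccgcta

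Apical carriers of the proximal tubule were lower in severe kidneys for 7 of the 8 tested, by log2 fold changes down to -0.56, with a median of -0.34. In 4 of the 8, and in 7 of the 13 proximal carriers on both membranes, every severe kidney lay below every mild kidney, where 16.1% of all tested genes did so. Values are given in the order of libraries 7, 8, 9 and 13, 14, 15. Slc7a13, the aspartate and glutamate carrier of the straight proximal tubule, stood at 863, 841 and 887 CPM in the mild and 775, 312 and 672 CPM in the severe kidneys. Library 14 held the lowest level by far, and libraries 13 and 15 lay between it and the mild range. The log2 fold change was -0.56 ± 0.30 (SE; edgeR adjusted p = 0.282), and -0.25 without library 14. Slc7a13 lies at chromosome 4 from 19818725 to 19842218 on the plus strand (mm10, as are all gene positions here).

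Slc6a20b, one of the mouse copies of the imino acid carrier gene SLC6A20, stood at 248, 256 and 275 CPM in the mild and 216, 113 and 199.5 CPM in the severe kidneys. All 3 severe kidneys were below the mild ones, library 14 the most. Its log2 fold change of -0.56 ± 0.22 (SE; edgeR adjusted p = 0.192) was the lowest among the tested members, next to Slc7a13, and it passed without library 14 (-0.32, edgeR adjusted p = 0.0445) and without library 13 (-0.73, edgeR adjusted p = 0.0458). It did not pass without library 15 (edgeR adjusted p = 0.272) or without mild library 7, 8 or 9 (edgeR adjusted p = 0.367, 0.386 and 0.384). Its near copy Slc6a20a lies next to it on chromosome 9 and stood at 8.48, 8.26 and 11.5 CPM in the mild and 8.96, 10.1 and 10.3 CPM in the severe kidneys, with overlapping groups and a log2 fold change of 0.056 ± 0.16 that turned negative without mild library 7 or 8. How reads shared by the copies were counted was not stated in the sources at hand. The table places Slc6a20b at chromosome 9 from 123593820 to 123632565 on the minus strand and Slc6a20a at chromosome 9 from 123636122 to 123678885 on the minus strand.

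The heavy chain gene Slc3a1, whose loss in people causes cystinuria, stood at 400.1, 406 and 389.8 CPM in the mild and 359, 235 and 348 CPM in the severe kidneys. Its light chain Slc7a9, the carrier of cystine and dibasic amino acids, stood at 144, 146 and 154 CPM in the mild and 131, 93.2 and 132 CPM in the severe kidneys. Both were below the mild range in all 3 severe kidneys, with log2 fold changes of -0.34 ± 0.17 and -0.32 ± 0.14 (edgeR adjusted p = 0.249 and 0.215), and -0.17 and -0.17 without library 14. The ratio of Slc7a9 to Slc3a1, per kb, was 39.9%, 39.7% and 43.6% in the mild and 40.4%, 43.8% and 42.1% in the severe kidneys, so the ratios overlapped while both levels were lower. As a share of the Slc3a1 level per kb, its other light chain Slc7a13 stood at 232%, 223% and 245% in the mild and 233%, 143% and 208% in the severe kidneys, with the lowest ratio in library 14. Slc3a1 overlaps Prepl, and no source used here gives the strand setting of the counting.

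The main neutral amino acid carrier of the brush border, Slc6a19, stood at 388, 352 and 425 CPM in the mild and 365, 185 and 338 CPM in the severe kidneys. Library 13 lay inside the mild range, so the groups overlapped (log2 fold change -0.39 ± 0.24, and -0.14 without library 14). Slc6a18, a neutral amino acid carrier of the later proximal tubule and the neighbour of Slc6a19 on chromosome 13, stood at 655, 701 and 682 CPM in the mild and 686, 430.3 and 556 CPM in the severe kidneys. It overlapped too, at a log2 fold change of -0.29 ± 0.18, and -0.13 without library 14. The glutamate carrier Slc1a1 stood at 179, 194 and 190.2 CPM in the mild and 181, 112 and 155 CPM in the severe kidneys, at a log2 fold change of -0.33 ± 0.17, and -0.16 without library 14. All 3 were lowest in library 14 and within the mild range in library 13. These carriers had edgeR adjusted p-values of 0.333, 0.343 and 0.257.

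The ninth apical carrier, the proton-coupled glycine and proline carrier Slc36a2, had too few counts for the test. It had 6, 1 and 7 counts in the mild and 4, 42 and 22 counts in the severe kidneys. Libraries 14 and 15 were above all mild libraries and library 13 was not. Without library 13 it reached the filter through its severe libraries alone, which fixes its direction there.

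**Figure D2:**
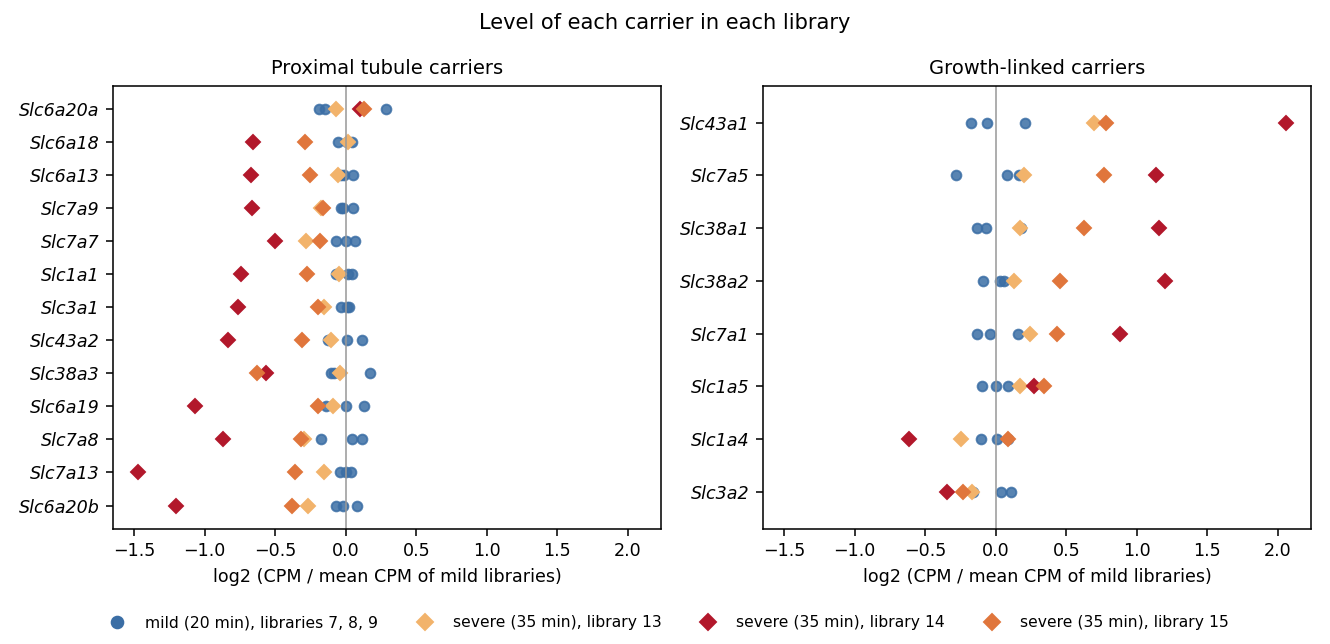
Level of each tested proximal tubule carrier (left) and growth-linked carrier (right) in every library, as the log2 ratio of its CPM to the mean CPM of the 3 mild libraries. Circles are mild and diamonds severe kidneys; library 14 lies farthest from 0 in 11 of 13 proximal and 7 of 8 growth-linked carriers.

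Basolateral carriers of the proximal tubule were lower in severe kidneys for all 5 tested, with a median log2 fold change of -0.38, and 3 of the 5 were below every mild kidney, against 16.1% of all tested genes. Slc7a8, the light chain that exchanges neutral amino acids, stood at 289, 353 and 335 CPM in the mild and 266, 179 and 261 CPM in the severe kidneys. Every severe kidney was below the lowest mild one (log2 fold change -0.47 ± 0.17, edgeR adjusted p = 0.17), and the value was -0.31 without library 14. Slc7a7, the light chain that hands dibasic amino acids to the blood, stood at 199, 219 and 209.7 CPM in the mild and 172, 148 and 184 CPM in the severe kidneys. It too was lower in all 3 severe kidneys, at a log2 difference of -0.32 ± 0.11 (edgeR adjusted p = 0.155), and overlaps Oxa1l. The table places Slc7a7 at chromosome 14 from 54369444 to 54409472 on the minus strand and Slc7a8 at chromosome 14 from 54722216 to 54781886 on the minus strand.

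Slc6a13, a carrier of GABA, betaine and taurine, stood at 138, 144 and 136 CPM in the mild and 134, 87.8 and 117 CPM in the severe kidneys, with library 13 just under the mild range and a log2 fold change of -0.31 ± 0.15 (SE; edgeR adjusted p = 0.242), -0.15 without library 14. The uniporter Slc43a2, which lets large neutral amino acids out, stood at 292, 321 and 345 CPM in the mild and 297, 179 and 258 CPM in the severe kidneys. Its groups overlapped through library 13 (log2 fold change -0.38 ± 0.19, -0.20 without library 14). Slc38a3, which brings glutamine into the tubule cell for ammonia production, stood at 61.5, 73.1 and 60.3 CPM in the mild and 63.2, 43.9 and 42.0 CPM in the severe kidneys. Here libraries 14 and 15 were low together and library 13 was within the mild range (log2 fold change -0.39 ± 0.16). Without library 13 it was -0.59 (edgeR adjusted p = 0.00959), without library 14 -0.30 (edgeR adjusted p = 0.436) and without library 15 -0.28 (edgeR adjusted p = 0.389).

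Leaving out library 13 raised the number of proximal carriers below every mild kidney from 7 to 12 of 13, and that share over all tested genes from 16.1% to 27.9%. Without library 14 it was 7 of 13, against 19% of all tested genes. Proximal tubule markers that are no amino acid carriers had a median log2 fold change of -0.50 over 15 genes, beside -0.34 over the 13 carriers. In severe libraries 13, 14 and 15 the mean log2 CPM of the carriers stood at -0.13, -0.76 and -0.26 relative to the mild mean, and that of the markers at -0.16, -1.06 and -0.38. Markers of the loop of Henle and of the distal nephron and collecting duct had medians of -0.45 over 7 and -0.34 over 9 tested genes, and stood at -0.18, -0.71 and -0.36 and at -0.068, -0.84 and -0.35 in the same libraries. The order over the severe libraries was the same for the carriers and for all 3 marker lists. The list of carrier partners also held peptidases and further carriers. Of its 8 tested genes, 5 were below every mild kidney, against 16.1% of all tested genes. A negative log2 fold change was found for 7 of the 8, and Slc15a2 stood at 0.012 with overlapping groups. Tmem27, which brings Slc6a19 and Slc6a18 to the membrane in the kidney, stood at 1530.5, 1392 and 1356 CPM in the mild and 1289, 883 and 1105 CPM in the severe kidneys (log2 fold change -0.38 ± 0.18, edgeR adjusted p = 0.237). The brush border peptidases Anpep and Ggt1 stood at a log2 difference of -0.42 ± 0.18 and -0.48 ± 0.24 (edgeR adjusted p = 0.217 and 0.25). The basolateral aromatic amino acid carrier Slc16a10 stood at a log2 difference of -0.25 ± 0.14 with overlapping groups.

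**Figure D3:**
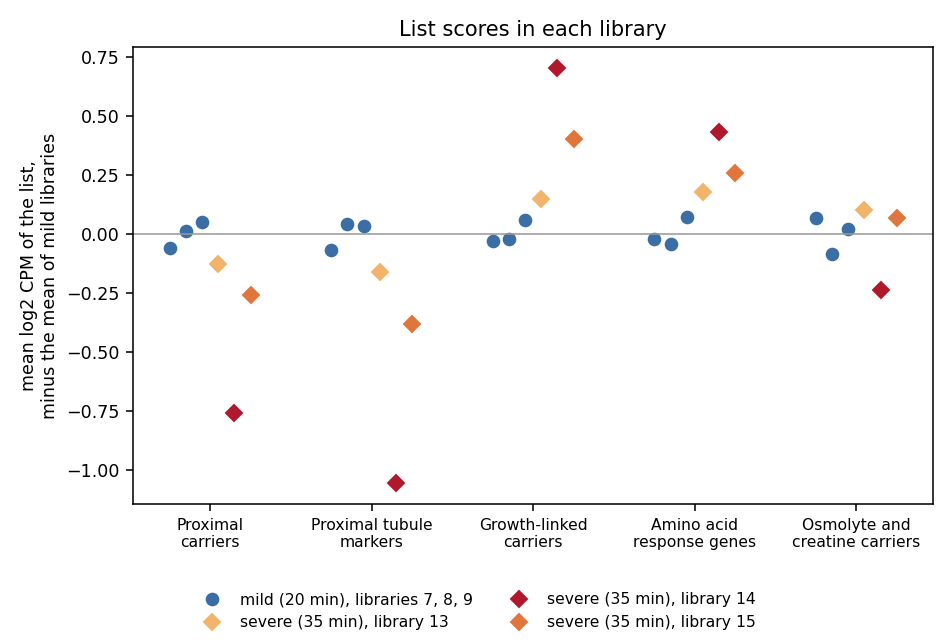
Mean log2 CPM of each list in each library, minus the mean of the 3 mild libraries (circles mild, diamonds severe). Proximal carriers and proximal tubule markers lie below 0 and growth-linked carriers and amino acid response genes above 0 in all 3 severe libraries, with library 14 the most extreme.

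Growth-linked carriers were higher in severe kidneys for 6 of the 8 tested, and 5 of the 8 were above every mild kidney, where 17.9% of all tested genes were. Without library 13, 6 of the 8 were (28.7% of all tested genes), and without library 14, 5 of the 8 (20.2%). At an unadjusted p under 0.05, 6 of the 8 were higher and 0 lower by edgeR (15.8% and 7.89% of all tested genes), and 0 passed over all genes. The light chain Slc7a5, which imports leucine and other large neutral amino acids and is typical of proliferating cells, stood at 5.31, 4.13 and 5.63 CPM in the mild and 5.76, 11.0 and 8.55 CPM in the severe kidneys. Library 13 was barely above the highest mild kidney and library 14 the highest. The log2 fold change was 0.75 ± 0.25 (edgeR adjusted p = 0.149), 0.51 without library 14 (edgeR adjusted p = 0.193) and 0.98 without library 13 (edgeR adjusted p = 0.0149). Slc7a5 lies at chromosome 8 from 121881150 to 121907694 on the minus strand.

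The uniporter Slc43a1, for branched-chain amino acids, had the fewest counts of the tested members, 12, 18 and 13 counts in the mild and 26, 69 and 26 counts in the severe kidneys. It was higher in every severe kidney, and its log2 fold change of 1.31 ± 0.43 (SE; edgeR adjusted p = 0.143) was 0.73 without library 14. The sodium-coupled glutamine carrier Slc38a2, induced by amino acid shortage and by hypertonicity, stood at 62.0, 68.9 and 67.5 CPM in the mild and 72.2, 152 and 90.6 CPM in the severe kidneys. It was above the mild range in all 3 severe kidneys, at a log2 fold change of 0.67 ± 0.25 (SE; edgeR adjusted p = 0.17) that was 0.30 without library 14. Its relative Slc38a1 stood at 6.07, 6.35 and 7.55 CPM in the mild and 7.50, 14.9 and 10.3 CPM in the severe kidneys, where library 13 lay just under mild library 9 (log2 fold change 0.71 ± 0.25, and 0.42 without library 14).

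The arginine and lysine carrier Slc7a1 stood at 16.3, 13.3 and 14.2 CPM in the mild and 17.3, 26.8 and 19.7 CPM in the severe kidneys, above the mild range in every severe kidney (log2 fold change 0.54 ± 0.17, edgeR adjusted p = 0.137), 0.34 without library 14. Slc1a5, the glutamine exchanger of growing cells, stood at 50.4, 54.0 and 57.3 CPM in the mild and 60.8, 64.9 and 68.3 CPM in the severe kidneys. Its shift was small and even across the severe kidneys, at a log2 difference of 0.26 ± 0.082 (edgeR adjusted p = 0.131), and 0.26 without library 14. The table places Slc7a1 at chromosome 5 from 148327410 to 148399904 on the minus strand and Slc1a5 at chromosome 7 from 16781346 to 16798274 on the plus strand.

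The other two tested growth-linked members were not higher. Slc3a2, the heavy chain that Slc7a5 shares with the basolateral carriers Slc7a7 and Slc7a8, stood at 254, 306 and 291 CPM in the mild and 252, 223 and 241 CPM in the severe kidneys. All 3 severe kidneys were below the mild ones, library 13 only just, at a log2 fold change of -0.25 ± 0.11 (SE; edgeR adjusted p = 0.226). Slc1a4, an exchanger of alanine, serine and cysteine, stood at 37.5, 32.8 and 35.5 CPM in the mild and 29.8, 23.1 and 37.4 CPM in the severe kidneys with overlapping groups and a log2 fold change of -0.23 ± 0.16, -0.069 without library 14. Slc6a14, a carrier of neutral and cationic amino acids, and Slc38a5, a glutamine carrier, had too few counts for the test. Slc6a14 had 3, 2 and 4 counts in the mild and 3, 7 and 2 counts in the severe kidneys, and Slc38a5 had 0, 0 and 0 counts in the mild and 0, 2 and 1 counts in the severe kidneys.

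The light chains of Slc3a2 differed in their ratio to it. As a share of the Slc3a2 level per kb, Slc7a5 stood at 1.67%, 1.08% and 1.55% in the mild and 1.83%, 3.96% and 2.84% in the severe kidneys, so every severe kidney was above every mild one. On the same scale, Slc7a8 stood at 79.3%, 80.6% and 80.4% in the mild and 73.7%, 55.8% and 75.7% in the severe kidneys, with the severe kidneys below. Slc7a7 had overlapping ratios, from 94.2% to 103% in mild and 87.1% to 100.5% in severe kidneys. The ratios of the light chain Slc7a6 overlapped too, at 2.23%, 1.40% and 1.58% in the mild and 1.71%, 5.75% and 3.00% in the severe kidneys. In every library Slc7a5 stood far below the basolateral light chains, and its ratio to Slc7a8 was 2.11%, 1.34% and 1.92% in the mild and 2.48%, 7.08% and 3.75% in the severe kidneys. Among the glutamate family, the ratio of Slc1a5 to Slc1a1 was 38.1%, 37.8% and 40.8% in the mild and 45.4%, 78.1% and 59.5% in the severe kidneys. These ratios do not depend on the scaling of the libraries.

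Set against each other within each library, growth-linked carriers minus proximal carriers (mean log2 CPM) stood at 0.27, 1.46 and 0.66 in severe libraries 13, 14 and 15 relative to the mild mean, and between -0.035 and 0.028 in mild libraries. The difference of group means was 0.80, and 0.47 without library 14. It was 0.62 with the median over members in place of the mean. No test was made on this score, since the members were chosen with results known. Summed over the list, growth-linked carriers stood at 432 to 487 CPM in mild and 447 to 520.2 CPM in severe kidneys, a sum that is carried by Slc3a2 and overlapped between the groups. Macrophage and fibroblast marker sums, given above, took the same order over the severe libraries, and their part in the levels of the growth-linked carriers was not tested.

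**Figure D4:**
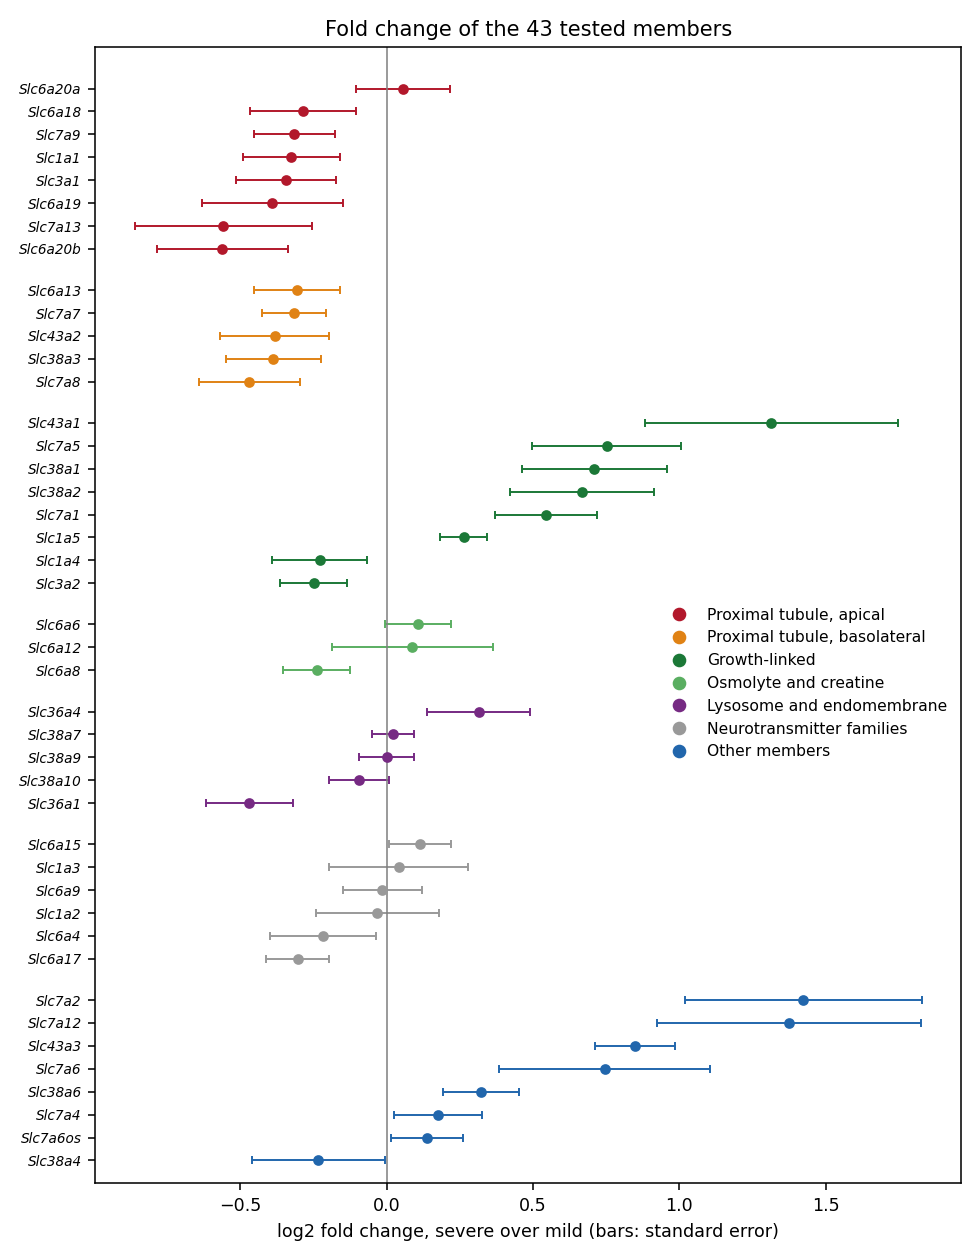
Log2 fold change (severe over mild) with its standard error for the 43 tested members, coloured by list. Proximal carriers lie between -0.56 and 0.056, growth-linked carriers between -0.25 and 1.31.

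Outside these lists, the smallest p-values among the members belonged to Slc43a3 and Slc7a2. Slc43a3, a carrier of purine nucleobases within an amino acid carrier family, stood at 30.3, 30.2 and 27.2 CPM in the mild and 46.0, 64.5 and 47.4 CPM in the severe kidneys. All 3 severe kidneys were far above the mild range, and the log2 fold change of 0.85 ± 0.14 did not pass (edgeR adjusted p = 0.0867), with 8.75e-05 to 0.319 over the alternatives. It passed without library 13 and without library 14 (0.68, edgeR adjusted p = 0.00255). Slc7a2, the inducible arginine carrier that serves arginase and nitric oxide synthase in macrophages, stood at 9.79, 10.3 and 11.5 CPM in the mild and 15.4, 49.1 and 20.4 CPM in the severe kidneys. Each severe kidney was above the mild range and library 14 stood far above the others, at a log2 fold change of 1.42 ± 0.40 (SE; edgeR adjusted p = 0.114). Without library 14 it was 0.76 (edgeR adjusted p = 0.0222), and without library 13 1.73 (edgeR adjusted p = 0.0122). Slc7a2 did not pass without library 15 (edgeR adjusted p = 0.212) or without mild library 7, 8 or 9 (edgeR adjusted p = 0.319, 0.322 and 0.276). Slc43a3 lies at chromosome 2 from 84936579 to 84958509 on the plus strand and Slc7a2 at chromosome 8 from 40862396 to 40922308 on the plus strand.

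Slc7a12, a kidney-expressed relative of the light chains, had 116, 186 and 166 counts in the mild and 233, 850 and 290 counts in the severe kidneys. It was higher in every severe kidney, at a log2 fold change of 1.38 ± 0.45 (SE; edgeR adjusted p = 0.143) that was 0.62 without library 14. Slc7a12 and Slc7a13 are known to differ between the sexes in mouse kidney. Ddx3y stood at 52.2, 57.5 and 58.0 CPM in the mild and 53.3, 62.1 and 53.9 CPM in the severe kidneys and Xist at 0.0689, 0.180 and 0.206 CPM in the mild and 0.291, 0.169 and 0.123 CPM in the severe kidneys, so all 6 libraries carried the male gene and had Xist near the floor of 3 counts (0.169 to 0.207 CPM). Slc7a6, a further light chain of Slc3a2, stood at 7.51, 5.69 and 6.11 CPM in the mild and 5.70, 17.0 and 9.59 CPM in the severe kidneys, with library 13 inside the mild range (log2 fold change 0.74 ± 0.36, 0.25 without library 14). Slc38a6, an orphan relative of the glutamine carriers, stood at a log2 difference of 0.32 ± 0.13 (edgeR adjusted p = 0.195) and was above the mild range in all 3 severe kidneys, with 0.18 without library 14. Slc7a4 and Slc38a4 stood at a log2 difference of 0.17 ± 0.15 and -0.23 ± 0.23 with overlapping groups, and Slc38a4 at -0.062 without library 14. Slc7a6os, which is no carrier, stood at a log2 difference of 0.14 ± 0.12.

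Among carriers of lysosomes and other inner membranes, only Slc36a1 of 5 tested had groups that did not overlap (20%, against 34% of all tested genes). This proton-coupled carrier, which lets amino acids out of lysosomes and takes part in mTORC1 activation, stood at 199, 188 and 212 CPM in the mild and 165, 112 and 155 CPM in the severe kidneys. All 3 severe kidneys were lower, at a log2 fold change of -0.47 ± 0.15 (SE; edgeR adjusted p = 0.135, 0.00532 to 0.33 over the alternatives), and it passed without library 14 (-0.32, edgeR adjusted p = 0.0432) and without library 13 (-0.57, edgeR adjusted p = 0.0293). The lysosomal arginine sensor Slc38a9 stood at 21.2, 19.3 and 18.5 CPM in the mild and 20.3, 20.0 and 18.8 CPM in the severe kidneys, at a log2 fold change of 0.000194 ± 0.094. The lysosomal glutamine carrier Slc38a7 stood at a log2 difference of 0.022 ± 0.073 and Slc38a10 at -0.095 ± 0.10. Slc36a4 stood at a log2 difference of 0.31 ± 0.18, highest in library 14 and just under the lowest mild kidney in library 13, and at 0.11 without library 14.

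The organic osmolyte and creatine carriers did not share a direction. Slc6a6, which takes up taurine, stood at 457, 468 and 468 CPM in the mild and 526, 484 and 489 CPM in the severe kidneys, each severe kidney slightly above the mild ones (log2 fold change 0.11 ± 0.11, edgeR adjusted p = 0.569). The creatine carrier Slc6a8 stood at 297, 286 and 304 CPM in the mild and 270.3, 219.7 and 262 CPM in the severe kidneys, each severe kidney below the mild ones (log2 fold change -0.24 ± 0.12, edgeR adjusted p = 0.242; -0.15 without library 14). Slc6a12, the betaine carrier of the medulla, overlapped (log2 fold change 0.088 ± 0.27).

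Of 14 members known mainly from nerve cells, 6 were tested and 1 had groups that did not overlap (16.7%, against 34% of all tested genes). Slc6a17, a vesicular neutral amino acid carrier, stood at 30.0, 30.1 and 25.7 CPM in the mild and 24.3, 20.6 and 24.5 CPM in the severe kidneys (log2 fold change -0.30 ± 0.11, edgeR adjusted p = 0.157). The neutral amino acid carrier Slc6a15 stood at a log2 difference of 0.11 ± 0.11, the glycine carrier Slc6a9 at -0.014 ± 0.14 and the serotonin carrier Slc6a4 at -0.22 ± 0.18. The glial glutamate carriers Slc1a2 and Slc1a3 stood at a log2 difference of -0.032 ± 0.21 and 0.041 ± 0.24. All 5 had overlapping groups, and Slc6a4 stood at -0.099 without library 14.

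In all, 18 members had too few counts for the test with all 6 libraries. Slc6a11 and Slc7a14 were at 0 in every library, 9 had fewer than 10 counts over the 6 libraries, and 7 had 10 or more, none above 42 in a library. Among the 7, Slc7a3, a cationic amino acid carrier, had 4, 11 and 9 counts in the mild and 11, 21 and 15 counts in the severe kidneys, and Slc1a6, a neuronal glutamate carrier, had 1, 1 and 0 counts in the mild and 2, 6 and 2 counts in the severe kidneys. The others were Slc36a2 and Slc6a14, described above, and Slc6a7, Slc7a15 and Slc38a11. The tested members nearest to the filter were Slc43a1 and Slc6a12, with means of 27.3 and 30.7 counts per library.

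Genes that answer to amino acid shortage were read from a list of 26, all tested, which does not overlap the carriers. They had a median log2 fold change of 0.11, with 8 above every mild kidney (30.8%, against 17.9% of all tested genes) and 3 below (11.5%, against 16.1%). At an unadjusted p under 0.05, 10 were higher and 0 lower by edgeR (15.8% and 7.89% of all tested genes), and 0 of 26 passed over all genes. Asparagine synthetase (Asns), a standard target of Atf4, stood at 4.96, 4.31 and 5.15 CPM in the mild and 6.16, 9.73 and 9.22 CPM in the severe kidneys, above the mild range in each severe kidney (log2 fold change 0.80 ± 0.21, edgeR adjusted p = 0.103). The mTORC1 inhibitor Ddit4 stood at 28.0, 26.6 and 26.5 CPM in the mild and 43.4, 58.6 and 44.2 CPM in the severe kidneys, again with no overlap (log2 fold change 0.85 ± 0.12, edgeR adjusted p = 0.0867). The pseudokinase Trib3 and the transcription factor Atf5 stood at a log2 difference of 1.14 ± 0.29 and 0.58 ± 0.15 (edgeR adjusted p = 0.102 and 0.107). The others above every mild kidney were the proline synthesis genes Aldh18a1 and Pycr1, Mthfd2 of mitochondrial folate metabolism and the translation inhibitor Eif4ebp1. Those below were Aars, Shmt2 and Vldlr. The other 15 had overlapping groups, among them Ddit3, Chac1, Psat1, Phgdh and Psph. Atf4 itself, which is controlled largely through its translation, stood at 79.6, 89.6 and 79.4 CPM in the mild and 75.0, 90.6 and 76.5 CPM in the severe kidneys (log2 fold change -0.038 ± 0.099, positive under scaling by library totals). Libraries 13 and 15 lay just under its mild range and library 14 just above it.

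**Figure D5:**
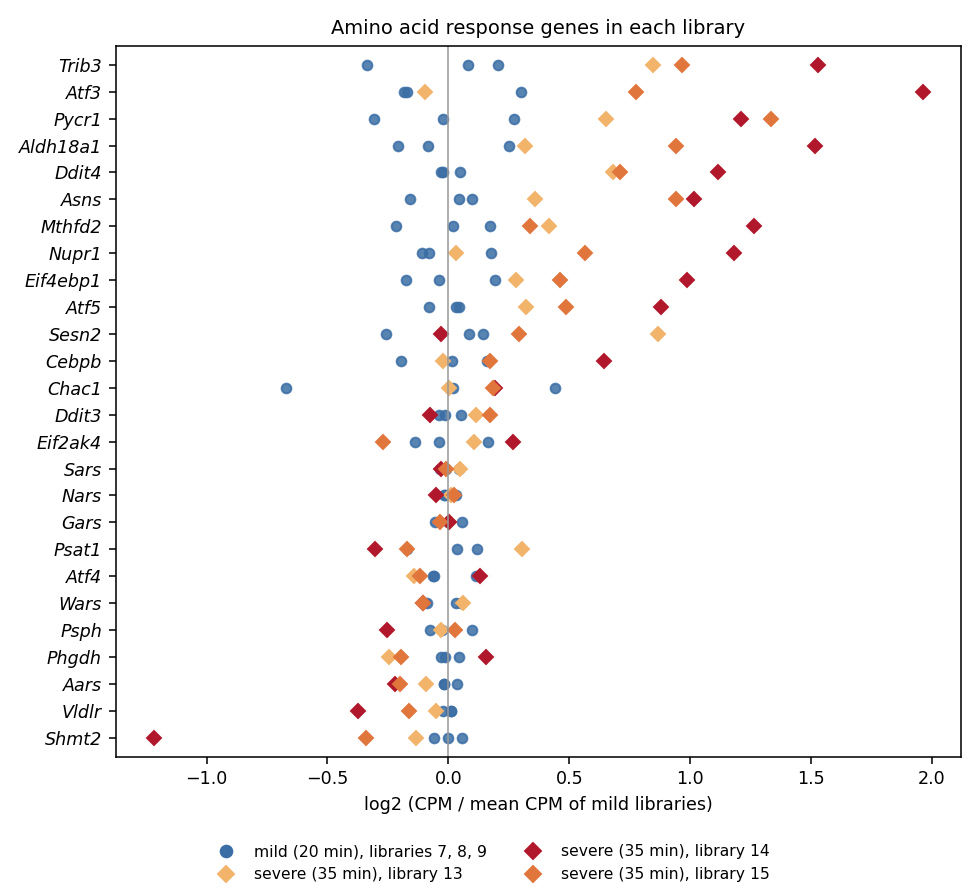
Level of the 26 amino acid response genes in every library, as the log2 ratio of CPM to the mean of the mild libraries. Trib3, Asns, Ddit4 and Atf5 lie above the mild circles in all 3 severe kidneys, while Atf4 has severe kidneys on both sides of them. Of the 26 genes, 15 have overlapping groups.

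Of 24 tested genes of lysosomal amino acid sensing by mTORC1, 0 passed, and the median log2 fold change was -0.06. Of these, 1 was above every mild kidney (4.17%, against 17.9% of all tested genes) and 4 were below (16.7%, against 16.1%). At an unadjusted p under 0.05, 1 was higher and 3 lower by edgeR (15.8% and 7.89% of all tested genes). The kinase Mtor stood at 290.0, 257 and 261 CPM in the mild and 259, 148 and 207 CPM in the severe kidneys, with library 13 in the mild range (log2 fold change -0.40 ± 0.19). The Ragulator subunits Lamtor5 and Lamtor4 stood at a log2 difference of -0.41 ± 0.12 and -0.32 ± 0.13 (edgeR adjusted p = 0.123 and 0.193). The other Ragulator subunits Lamtor1, Lamtor2 and Lamtor3 had overlapping groups, at -0.15 ± 0.093, -0.14 ± 0.12 and 0.052 ± 0.072. Nprl2, of the inhibitory GATOR complex, stood at a log2 difference of -0.32 ± 0.12, the folliculin gene Flcn at -0.16 ± 0.075, and the stress-induced inhibitor Sesn1 at 0.25 ± 0.10. Nprl3 and Depdc5, of the same complex as Nprl2, had overlapping groups, at -0.038 ± 0.098 and -0.014 ± 0.092.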

How the data were processed

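Whole-kidney RNA was sequenced from 6 kidneys, 3 per group. Libraries were made with a NEBNext Ultra kit from poly-T selected, DNase-treated TRIzol RNA, per the labels' protocols. HTSeq 0.6.1, TopHat2 2.0.12, Bowtie2 2.2.3 and the mm10 build are named, per the submitters' processing notes. No source used here gives the strand setting. The authors deposited whole-number counts per gene, not normalized, with gene length and position in the same table, and replicates were not pooled. Columns name the group and a library number, which is used here as the name of each kidney.

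Genes were filtered with filterByExpr, scaled by TMM and tested with edgeR 4.0.16 (R 4.3.3, quasi-likelihood, robust), severe against mild, with Benjamini-Hochberg adjustment over 14883 genes and a threshold of 0.05. The standard error of a log2 fold change was its size divided by the square root of F. CPM per kb used the gene length of the table. Scores are means of log2 CPM with a prior count of 2. Alternatives were DESeq2 1.42.0, limma 3.58.1 (voom, with and without quality weights), other scalings and filters, and each library left out. With 3 libraries per group, an exact permutation test cannot go below p = 0.1 and was not used. Library totals of 15240491 to 17730967 counts put the floor of 3 counts at 0.169 to 0.207 CPM, which covers counting error only. Replicates differed beyond counting noise in every pair of each group. On simulated data for this comparison (14776 genes), edgeR found 28.8% of the genes set to a 1.5-fold change, against 74.2% at 2-fold and 95.4% at 4-fold. It called 140 genes there, 10 of them not set to change. The simulated noise was drawn for each gene alone, without a shift shared by many genes of a library such as severe library 14. These shares therefore do not carry over to the real libraries, where 0 of 10 fibroblast markers passed at a median fold of 3.38.

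The members and gene lists were chosen with earlier results of these data known. Named genes are all members of the proximal and growth-linked lists, up to 10 other tested members by smallest p, and of each pathway list up to 4 by smallest p plus set anchors (Tmem27, Slc16a10, Atf4, Asns, Mtor). One gene of the list of carrier partners is not reported here. Other genes named complete a count or a list and were chosen after their values were seen. Marker lists not described with the results gave these summed levels: loop of Henle 7087 to 7247 CPM in mild and 3985 to 6562 CPM in severe kidneys, distal nephron and collecting duct 1899 to 1987 CPM in mild and 1074 to 1794 CPM in severe kidneys, endothelium 575 to 657 CPM in mild and 574 to 712 CPM in severe kidneys, podocytes 431 to 439 CPM in mild and 365 to 437 CPM in severe kidneys and lymphocytes 6.07 to 10.6 CPM in mild and 7.33 to 11.7 CPM in severe kidneys.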

Additional observations from a re-analysis of the deposited data

How the results depend on the processing

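Against 2 genes past the threshold in edgeR, scaling by library totals gave 1, no filter on low counts 146, DESeq2 1171, limma-voom with quality weights 5041, and leaving out a library in turn 0 to 3269. The last is 3269 without severe library 13, 501 without severe library 14 and 1 or 0 without any other. Among members, 0 passed in edgeR (10 higher and 6 lower at an unadjusted p under 0.05) and in limma-voom, 1 without a filter (Slc43a3), 4 in DESeq2 (Slc43a3, Slc7a2 and Slc7a12 higher, Slc36a1 lower), 25 with quality weights (11 higher, 14 lower, beside 18.2% and 15.7% of all tested genes), and 0 to 17 with a library left out. The 17 came without severe library 13.

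The median log2 fold change of growth-linked carriers, 0.61, was 0.80 under library totals, 0.45 with quality weights and 0.32 to 0.78 with a library left out, lowest without severe library 14 and highest without severe library 13. That of proximal carriers, -0.34, was -0.19 under library totals, -0.27 with quality weights and -0.47 to -0.17 with a library left out. Growth-linked minus proximal scores, 0.80, ran from 0.47 to 0.87 with a library left out and from 0.62 to 0.81 under the other settings. The count of proximal carriers below every mild kidney, 7, was 7 to 12 with a library left out, and 12 without severe library 13. That of growth-linked carriers above, 5, was 5 to 6. These non-overlap counts without single libraries were added after seeing the data.

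Among the genes the naming rule chose, signs turned for Atf4 (0.14 under library totals, 0.029 without mild library 8, 0.020 without severe library 13, and -0.13 to 0.029 over all libraries left out), Slc1a4 (0.041 with quality weights) and Slc6a20a (-0.0075 without mild library 7, -0.023 without mild library 8, and -0.023 to 0.229 over all libraries left out), and the cause was not tested. Slc1a2, Slc1a3, Slc6a9, Slc6a12, Slc38a7, Slc38a9 and Slc38a10, members outside that rule with values near 0, also turned sign under at least 1 alternative. Of the other values of the genes so chosen, 560 kept direction and side of the threshold and 78 passed it only under the alternative. Library totals moved the median of all tested genes to 0.17 and the higher share of genes at an unadjusted p under 0.05 from 66.7% to 90.8%; quality weights gave 52.2%.

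No paired analysis was possible because the groups share no replicate numbers. The 18 members with few counts were left out by the filter; with no filter 59 of the 61 entered the fit.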

Other observations

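Slc43a1 and Slc43a3, the paralogues with higher levels in every severe kidney, lie close together on chromosome 2 of mm10, from 84838850 to 84863594 and from 84936579 to 84958509, both on the plus strand. Between them, from 84871924 to 84886710 on the minus strand, lies Rtn4rl2, a Nogo receptor relative. It stood at 0.827, 1.14 and 1.17 CPM in the mild and 1.51, 5.40 and 3.14 CPM in the severe kidneys, again without overlap (log2 fold change 1.67 ± 0.47, edgeR adjusted p = 0.112). The trio was chosen after its values were seen, and whether neighbouring genes moved together was not tested.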
